A study of Mus musculus with 282 samples.

Results

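The genes described here are 10 transcription factors of the myeloid lineages, Spi1, Cebpa, Cebpb, Cebpd, Cebpe, Gfi1, Irf8, Klf4, Runx1 and Zeb2, taken by Ensembl identifier from the 55450 genes of the count tables. The list was set by gene name, with earlier results of these data known. Single granulocyte-monocyte progenitors (GMPs), the bone marrow cells that form granulocytes and monocytes, were cultured for 8 h under a microscope and picked by hand for Smart-Seq2, which sequences the polyadenylated RNA of 1 cell. All cells came from male and female mice 12 to 19 weeks old, homozygous for GFP-p65, a fluorescent form of the NfkB subunit p65, and heterozygous for H2BmCherry, which marks nuclei, so the blank cells carried both alleles too. The series has 282 samples, and 238 of them appear in cell tables that the authors deposited. Of these, 178 had received TNF, a cytokine that activates NfkB, and 60 had the entry "blank" for the cytokine, read here as no cytokine. They came from 2 experiments, called here the 1-plate experiment (51 TNF and 16 blank cells), and the 2-plate experiment (127 TNF and 44 blank cells), and the experiment was the replicate (n = 2).

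Each cell carries a response class in the authors' tables, which the sources used here do not define. TNF cells were oscillatory (20 in the 1-plate experiment, 36 in the 2-plate one), transient (25 and 51), non-responsive (3 and 18), in a class the authors call outlier (3 and 1) or, only in the 2-plate experiment, sustained (5) or unclear (16). Blank cells were mostly non-responsive (13 and 34), and 2 and 1 of them were in the outlier class. A median of 1339522 reads per cell (182301 to 3380416) was assigned to genes, and 26 of the 28 cells under 8000 detected genes were on Plate2 of the 2-plate experiment. Levels are given as CPM, a gene's reads scaled to a common number of reads assigned to genes, for a cell or for the summed reads of a group of cells. Pairs of values below are for the 1-plate and then the 2-plate experiment. A level summed over cells cannot tell fewer cells with the transcript from less transcript per cell, so the number of cells with a read is given for each gene in the groups tested or over all cells.

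In the bone marrow, PU.1 (the protein of Spi1) and C/EBP alpha (of Cebpa) set up the GMP state. Further factors then oppose each other: Gfi1 and C/EBP epsilon go with the granulocyte path, while IRF8, KLF4 and ZEB2 go with monocytes and dendritic cells. NfkB enters the nucleus after TNF, and its return to the cytoplasm through induced inhibitors can give 1 pulse or repeated pulses.

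RefSeq promoters (build GRCm38.p6) were found for 7 of the 10 genes, with 13 start sites in all, and Spi1, Cebpd and Cebpe have no entry in the table used. The 250 bases before each start were searched on both strands for 4 sets of letters that stand for known binding motifs. The kappaB letters (3 G, any 2 bases, 3 T, 2 C), found in 1.41% of all 32851 promoters, and the GFI1 letters (3 A, T, C, any 3 bases, G, C; 2.4%) were in none of the 13 windows. The C/EBP letters TTGCNNAA (9.56% of all promoters) were in 1 window of Gfi1 and 1 of Zeb2, and the PU.1 letters GAGGAAG (10.6%) in 3 windows of Zeb2, of which a pair overlap and hold the same match. Gfi1 and Zeb2 are 2 of the 3 genes that passed the test in a comparison below, so their windows with a match, other than the overlapping pair, are shown 5′ to 3′ on the gene's strand, with the matched letters in capitals. The windows lie at chr5:107725806-107726055 (minus strand), chr2:45117443-45117692 (minus strand) and chr2:45110278-45110527 (minus strand). A match describes the letters and not a bound site.
Gfi1 start 1: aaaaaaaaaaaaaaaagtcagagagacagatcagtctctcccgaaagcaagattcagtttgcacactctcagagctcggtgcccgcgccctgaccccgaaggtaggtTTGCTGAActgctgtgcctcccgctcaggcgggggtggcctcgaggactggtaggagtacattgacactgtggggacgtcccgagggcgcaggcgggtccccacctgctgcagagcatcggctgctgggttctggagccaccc
Zeb2 start 1: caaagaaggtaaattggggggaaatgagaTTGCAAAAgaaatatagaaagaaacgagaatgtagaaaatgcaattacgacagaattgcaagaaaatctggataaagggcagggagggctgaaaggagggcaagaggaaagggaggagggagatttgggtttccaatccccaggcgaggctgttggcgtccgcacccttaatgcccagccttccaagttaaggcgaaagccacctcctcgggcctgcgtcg
Zeb2 start 4: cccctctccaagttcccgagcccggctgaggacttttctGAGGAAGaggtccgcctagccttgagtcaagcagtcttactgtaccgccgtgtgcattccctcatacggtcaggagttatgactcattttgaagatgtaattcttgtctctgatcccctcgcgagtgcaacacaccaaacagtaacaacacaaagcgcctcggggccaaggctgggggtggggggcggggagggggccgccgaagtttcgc

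Of the 10 genes, 9 had reads and 1, Irf8, was listed at 0. Spi1, Runx1 and Zeb2 had a read in 237, 238 and 238 of the 238 listed cells. Cebpb was read in 229 cells, Cebpa in 220 and Cebpd in 217. Spi1 and Cebpa, both defining factors of GMPs, were thus found in nearly every cell. The remaining genes divided the cells: Gfi1 had a read in 157 cells (65.97%, exact 95% interval 59.6% to 71.96%), Klf4 in 131 (55.04%, 48.5% to 61.5%) and Cebpe in 112 (47.1%, 40.6% to 53.6%). After each cell was thinned to 458260 reads, which 214 cells reached, these shares were 66.4%, 49.1% and 45.8%. Irf8 (ENSMUSG00000041515), which drives the monocyte and dendritic path and is known to be expressed in GMPs, had 0 reads in all 238 listed cells and in the other 44 samples. With 0 of 238, the upper exact 95% limit for the share of cells with a read is 1.54%. The limit that 3 counts set is 1.26% of cells, or 0.00888 CPM over their summed reads, and both cover counting error only. The sources used here do not say how reads in overlapping features were counted, and the part of that in the zero was not tested.

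Across the classes the 3 differences that passed the test were higher Spi1 and lower Gfi1 in oscillatory TNF cells than in non-responsive blank cells, and higher Zeb2 in oscillatory than in transient TNF cells. For TNF against blank cells as a whole, 0 of the 9 tested genes passed (edgeR's quasi-likelihood test with Benjamini-Hochberg adjustment over 8619 genes, n = 2 experiments), against a background of 3.46% of all genes tested. At an unadjusted edgeR p under 0.05, which 1231 of the 8619 genes met, Spi1 and Cebpd were higher and Cebpa and Gfi1 lower. DESeq2 called 2 of the 9 higher, Spi1 and Cebpd, against 6.15% of all genes. In oscillatory TNF against non-responsive blank cells, edgeR called 2 of 9 (background 8.75%), and DESeq2 called 4 of 9 (background 14%), adding Cebpd and Cebpa. For transient TNF against non-responsive blank cells, edgeR called 0 of 9 (background 1.24%). At an unadjusted edgeR p under 0.05, which 842 of 8361 genes met, Spi1 and Cebpd were higher and Runx1 and Zeb2 lower. DESeq2 called 2 of 9 in the same comparison, Spi1 and Cebpd (background 3.31%). Between oscillatory and transient TNF cells, edgeR called 1 of 9 (background 3.10%), and DESeq2 called 4, Spi1, Cebpb, Gfi1 and Zeb2 (background 6.98%). The median log2 fold change of the 9 genes was -0.31, 0.35, -0.34 and 0.28 in these 4 comparisons, beside -0.0084, -0.023, -0.0045 and -0.023 over all genes tested. The comparisons share cells: both blank comparisons of a class use the same blank cells, and the oscillatory and transient cells are part of the TNF cells.

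**Figure D1:**
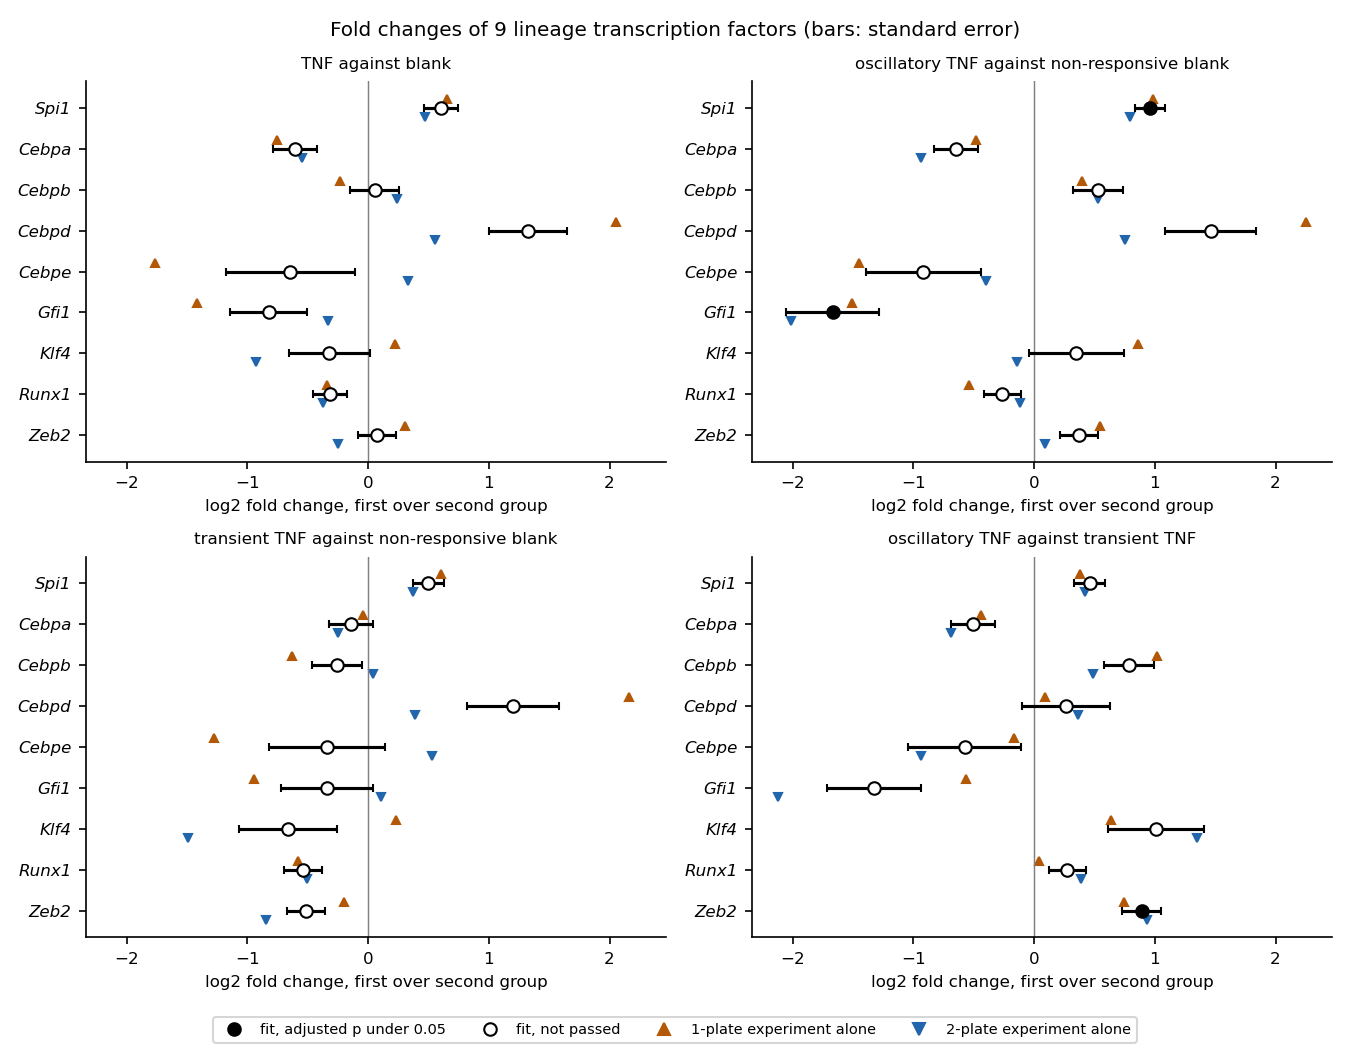
Log2 fold changes (first over second group) of the 9 genes with reads in the 4 comparisons; circles are the edgeR fit with standard error bars, filled where the adjusted p was under 0.05, and triangles are the log2 ratio of CPM of summed reads in each experiment alone. Filled circles are Spi1 and Gfi1 for oscillatory TNF against non-responsive blank cells, and Zeb2 for oscillatory against transient TNF cells, and each lies on the same side of 0 in both experiments.

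Spi1 (ENSMUSG00000002111) encodes PU.1, the ETS factor that myeloid progenitors require. In oscillatory TNF cells the lowest, median and highest cell had 166, 524 and 777 CPM in the 1-plate experiment, against 102, 238 and 447 CPM in non-responsive blank cells. The 2-plate experiment gave 30.3, 579 and 1067 CPM against 120, 294 and 726 CPM. The cells of both groups overlap, but the median oscillatory cell was above the highest blank cell in the 1-plate experiment. Over summed reads Spi1 had 522 and 590 CPM in oscillatory TNF cells against 263 and 340 CPM in non-responsive blank cells (log2 fold change 0.96 ± 0.13, SE, edgeR adjusted p = 0.00469, higher in both experiments). The call was lost without Plate1 of the 2-plate experiment (0.84, edgeR adjusted p = 0.0545) and without an experiment term (edgeR adjusted p = 0.214).

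Transient TNF cells lay between: their median cell had 364 and 353 CPM of Spi1, with ranges of 167 to 883 CPM and of 0 to 915 CPM. Summed, transient cells had 401 and 441 CPM, a log2 fold change of 0.50 ± 0.12 over non-responsive blank cells that did not pass (edgeR adjusted p = 0.156). The difference of oscillatory from transient cells was 0.46 ± 0.12 and did not pass either (edgeR adjusted p = 0.109). Over all TNF cells the sums were 433 and 488 CPM, against 275 and 353 CPM in all blank cells (log2 fold change 0.61 ± 0.14, edgeR adjusted p = 0.0688). By sums Spi1 was higher in TNF cells on every plate, with 433 against 275 CPM in the 1-plate experiment. The 2-plate experiment had 542 against 330 CPM on Plate1 and 423 against 376 CPM on Plate2. Cell by cell, Plate2 went the other way, with medians of 283 CPM in TNF and 326 CPM in blank cells and means of 344 and 361 CPM. The fold change of all TNF over all blank cells passed with cells thinned to equal reads (edgeR adjusted p = 0.00579), in cells with at least 8000 genes (0.0237) and without Plate2 (0.0102). Of all genes tested, these settings called 7.75%, 5.17% and 6.4%, against 3.46% in the main fit.

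**Figure D2:**
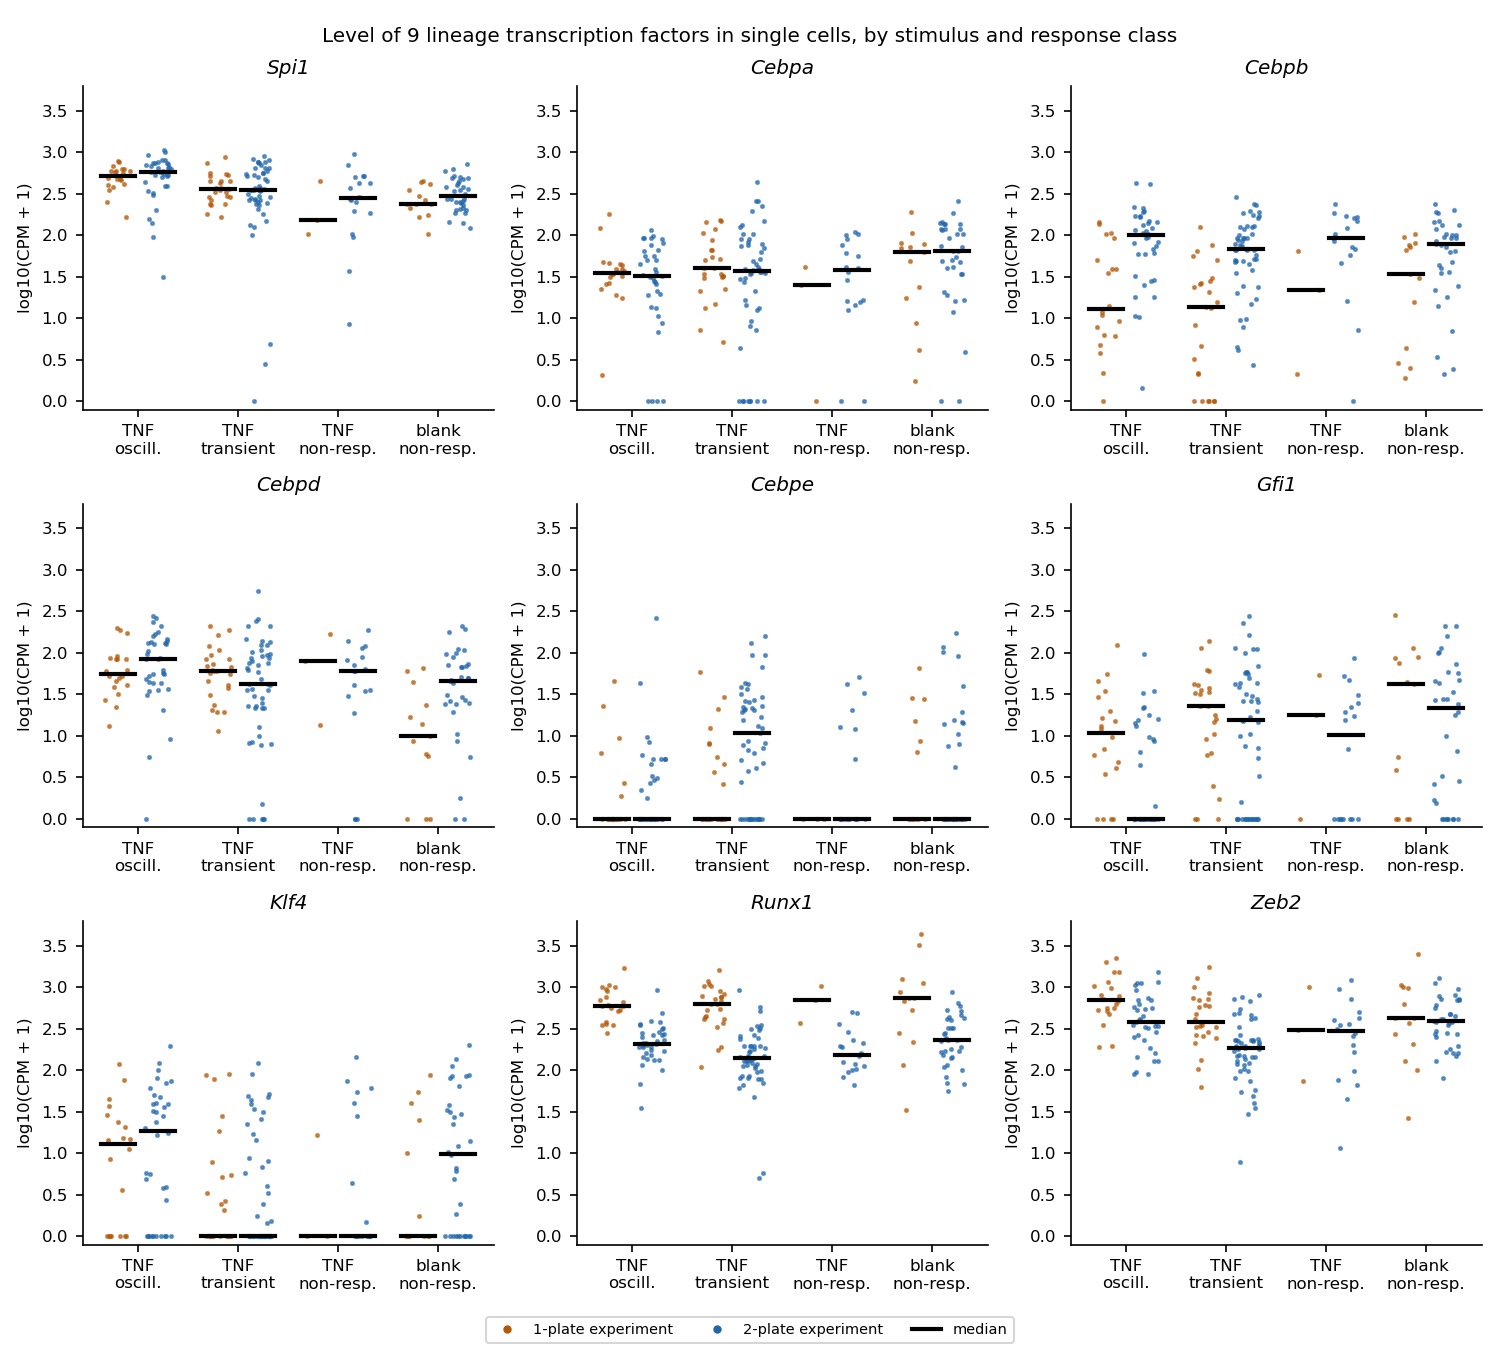
Level of each of 9 genes in single cells as log10(CPM + 1), for oscillatory, transient and non-responsive TNF cells and non-responsive blank cells; points are cells, coloured by experiment, and black bars are medians. Median Spi1 is 524 and 579 CPM in oscillatory cells against 238 and 294 CPM in non-responsive blank cells, while Cebpe, Gfi1 and Klf4 have many cells at 0.

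Among the C/EBP factors, basic leucine zipper proteins, Cebpd (ENSMUSG00000071637) had the largest fold changes in the comparisons with blank cells. C/EBP delta is known as a factor of acute inflammatory responses. Oscillatory TNF cells of the 1-plate experiment had 12.2, 55.4 and 200.5 CPM of Cebpd in the lowest, median and highest cell, against 0, 8.80 and 65.2 CPM in non-responsive blank cells. The 2-plate experiment had 0, 82.8 and 280.2 CPM against 0, 45.3 and 209.8 CPM, so the groups overlap almost wholly there. Summed, oscillatory cells had 77.6 and 89.3 CPM against 16.3 and 52.9 CPM in non-responsive blank cells, a log2 fold change of 1.46 ± 0.38 that did not pass (edgeR adjusted p = 0.0558). The log2 ratio was 2.25 within the 1-plate experiment alone and 0.75 within the other, a difference that was not tested. Transient TNF cells had 73.1 and 69.3 CPM, 1.20 ± 0.38 above non-responsive blank cells on the log2 scale, which did not pass (edgeR adjusted p = 0.296). In the 2-plate experiment the median transient cell was at 41.6 CPM, below the blank median of 45.3 CPM. Cebpd was read in 20 of 20 and 35 of 36 oscillatory cells, 25 of 25 and 46 of 51 transient cells, and 10 of 13 and 32 of 34 non-responsive blank cells.

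For TNF against blank cells as a whole, Cebpd had 73.2 and 75.2 CPM against 17.7 and 51.3 CPM (log2 fold change 1.32 ± 0.32, edgeR adjusted p = 0.083). On Plate1 of the 2-plate experiment TNF cells had 103.4 CPM against 76.2 CPM in blank cells, and on Plate2 41.1 CPM against 26.9 CPM. This comparison passed when either plate was left out (edgeR adjusted p = 0.0302 without Plate1 and 0.0213 without Plate2), with thinned cells (0.000178) and in cells with at least 8000 genes (0.038). Of all genes tested, these 4 settings called 3.54%, 6.4%, 7.75% and 5.17%, against 3.46% in the main fit. Oscillatory and transient TNF cells differed by 0.26 ± 0.36 on the log2 scale, less than the standard error (edgeR adjusted p = 0.796).

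Cebpa (ENSMUSG00000034957), whose protein is needed for GMPs to form, was at lower values in TNF cells but passed in no comparison with edgeR. Its median cell had 33.5 and 35.4 CPM among TNF cells against 70.3 and 63.97 CPM among blank cells, with ranges of 0 to 177 CPM and 0 to 438 CPM against 0.741 to 259 CPM and 0 to 261 CPM. The TNF medians were lower in both experiments, and the ranges overlap. Cebpa was read in 50 of 51 and 112 of 127 TNF cells, against 16 of 16 and 42 of 44 blank cells. Sums were 47.01 and 56.1 CPM in TNF cells against 79.4 and 81.9 CPM in blank cells (log2 fold change -0.60 ± 0.18, edgeR adjusted p = 0.167). Oscillatory TNF cells had 42.9 and 41.1 CPM against 60.02 and 78.8 CPM in non-responsive blank cells (-0.65 ± 0.18, edgeR adjusted p = 0.0737), which passed in cells with at least 8000 genes (edgeR adjusted p = 0.0377). Transient TNF cells had 58.2 and 66.3 CPM (-0.14 ± 0.18 from non-responsive blank cells, edgeR adjusted p = 0.857).

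Cebpb (ENSMUSG00000056501), which acts in granulocyte production under infection and in macrophages, had 45.6 and 116 CPM in oscillatory TNF cells, against 22.4 and 83.1 CPM in transient TNF cells. The log2 fold change of 0.79 ± 0.21 did not pass (edgeR adjusted p = 0.102). Medians of the 1-plate experiment lay close, with 11.99 CPM in the oscillatory cell against 12.6 CPM in the transient one. Cebpb was read in 19 of 20 and 36 of 36 oscillatory cells, 19 of 25 and 51 of 51 transient cells, and in all 13 and 34 non-responsive blank cells. Against non-responsive blank cells, at 34.7 and 80.7 CPM, the summed reads of oscillatory cells gave 0.53 ± 0.21 (edgeR adjusted p = 0.17). Cell by cell the 1-plate experiment went the other way, with medians of 11.99 CPM in oscillatory and 33.3 CPM in blank cells and means of 40.2 and 44.1 CPM. Transient TNF cells differed from non-responsive blank cells by -0.26 ± 0.21 (edgeR adjusted p = 0.739). In TNF against blank cells the fold change was 0.05 ± 0.20 (edgeR adjusted p = 0.951), with opposite signs within the experiments (-0.23 and 0.24).

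Cebpe (ENSMUSG00000052435), a factor of late granulocyte maturation, was at 0 in the median cell of every class shown in the plot of single cells except transient TNF cells of the 2-plate experiment, whose median was 9.68 CPM and of which 72.5% had a read (exact 95% interval 58.3% to 84.1%). Among oscillatory TNF cells, 6 of 20 and 16 of 36 had a read, and among non-responsive blank cells 6 of 13 and 14 of 34. Summed reads were few and uneven: 1 cell held 75.6% of the Cebpe reads of the oscillatory cells of the 2-plate experiment, whose sum was 3.14 CPM without it. Oscillatory cells had 4.39 and 12.4 CPM, transient cells 4.93 and 23.7 CPM and non-responsive blank cells 11.97 and 16.4 CPM, and the 4 comparisons gave log2 fold changes of -0.92 to -0.34 with standard errors of 0.47 to 0.54, none of which passed. In the 1-plate experiment the sums without the highest cell were 1.83 CPM for oscillatory and 2.55 CPM for transient cells. For TNF against blank cells the summed reads went opposite ways in the experiments, with 4.11 against 14.01 CPM and 17.6 against 14.01 CPM. Means over cells were lower in TNF cells of both, with 4.44 against 13.8 CPM and 14.5 against 15.3 CPM. In the 2-plate experiment the median TNF cell was higher, at 1.92 CPM against 0.

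Gfi1 (ENSMUSG00000029275) encodes a zinc finger repressor that neutrophils need. Oscillatory TNF cells of the 1-plate experiment had 0, 9.87 and 123 CPM in the lowest, median and highest cell, against 0, 40.6 and 286 CPM in non-responsive blank cells. The 2-plate experiment had 0, 0 and 95.7 CPM against 0, 20.6 and 212 CPM. Both groups reach down to 0, and the highest cells and the medians were lower in the oscillatory cells of both experiments. Summed Gfi1 was lower, with 19.2 and 9.76 CPM over oscillatory cells, against 54.7 and 39.4 CPM over non-responsive blank cells (log2 fold change -1.67 ± 0.39, edgeR adjusted p = 0.0386). Among oscillatory cells, Gfi1 was read in 16 of 20 and 16 of 36, and among non-responsive blank cells in 9 of 13 and 26 of 34, so the share was lower in the 2-plate experiment and not in the other. One oscillatory cell held 38.4% of the Gfi1 reads in the 1-plate experiment, and without it the oscillatory sum was 12.6 CPM, lower still than that of the blank cells. One non-responsive blank cell of that experiment held 33.7% of its group's Gfi1 reads, and without it the blank sum fell to 38.7 CPM. The call was lost with the default low-count filter (edgeR adjusted p = 0.104), with no filter (0.0597), without an experiment term (0.188), in cells with at least 8000 genes (0.0549) and without Plate1 of the 2-plate experiment (0.13), where the log2 fold change lay between -1.69 and -1.48.

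Transient TNF cells had 28.3 and 42.4 CPM of Gfi1, with medians of 21.5 and 14.4 CPM. The log2 fold change of oscillatory over transient cells was -1.33 ± 0.39, with log2 ratios of -0.56 and -2.12 within the experiments, and missed the threshold (edgeR adjusted p = 0.136). Transient against non-responsive blank cells gave -0.34 ± 0.38 (edgeR adjusted p = 0.823), with opposite signs of the summed reads in the experiments. By the mean over cells Gfi1 was lower in transient cells of both experiments, with 29.4 against 56.7 CPM and 36.96 against 41.3 CPM. Over all TNF cells Gfi1 had 22.3 and 28.1 CPM against 59.6 and 35.3 CPM in blank cells (log2 fold change -0.82 ± 0.32, edgeR adjusted p = 0.293). This difference passed with thinned cells (edgeR adjusted p = 0.0293), a setting that called 7.75% of all genes tested.

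Zeb2 (ENSMUSG00000026872), a zinc finger factor of monocyte and dendritic cell formation, differed between the response classes within TNF cells. The lowest, median and highest oscillatory cell had 189.5, 703 and 2277 CPM in the 1-plate experiment, against 61.3, 383 and 1769 CPM in transient cells. In the 2-plate experiment these were 88.9, 379.6 and 1532 CPM against 6.78, 182 and 809 CPM. The groups overlap, and all 3 values were higher in oscillatory cells in both experiments. Summed over cells, Zeb2 had 850.4 and 494 CPM in oscillatory cells against 509 and 258 CPM in transient cells. The log2 fold change of oscillatory over transient cells was 0.89 ± 0.16 (edgeR adjusted p = 0.0316). The call was lost with the default filter (edgeR adjusted p = 0.106), with no filter (0.0511), without an experiment term (0.752), and without Plate1 (0.0866) or Plate2 (0.146) of the 2-plate experiment, where the log2 fold change was 1.13 and 0.75.

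Against non-responsive blank cells, at 583 and 464 CPM of Zeb2, oscillatory TNF cells were 0.37 ± 0.16 higher (edgeR adjusted p = 0.193) and transient TNF cells had a log2 fold change of -0.52 ± 0.16 (edgeR adjusted p = 0.275). Neither difference passed. The blank sums lay between those of both TNF classes, but this order rests on the measure and on 1 cell. In the 2-plate experiment the median blank cell, at 389.5 CPM, was above the median oscillatory cell at 379.6 CPM. In the 1-plate experiment 1 cell held 38.5% of the Zeb2 reads of the non-responsive blank cells, and without it their sum was 394 CPM, below the transient sum of 509 CPM. TNF and blank cells as a whole differed by 0.07 ± 0.16 (edgeR adjusted p = 0.901).

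Klf4 (ENSMUSG00000003032), a zinc finger factor that promotes monocyte differentiation, passed in no comparison. Among oscillatory TNF cells 13 of 20 and 26 of 36 had a read, against 12 of 25 and 23 of 51 transient TNF cells. The shares in the 2-plate experiment were 72.2% against 45.1%, and 70.6% against 36.96% when cells were thinned to equal reads. The median oscillatory cell had 11.96 and 17.8 CPM, and the median transient cell 0 in both experiments. Summed, oscillatory cells had 18.95 and 30.3 CPM against 12.2 and 11.9 CPM in transient cells (log2 fold change 1.01 ± 0.40, edgeR adjusted p = 0.265). One transient cell of the 1-plate experiment held 45.2% of the Klf4 reads of its group, whose sum was 7.12 CPM without it. One oscillatory cell of that experiment held 26.4% of its group's Klf4 reads, and without it the oscillatory sum was 14.6 CPM. Of non-responsive blank cells, 46.2% and 67.6% had a read, and their sums were 10.4 and 33.5 CPM (log2 fold change 0.35 ± 0.39 for oscillatory TNF cells, edgeR adjusted p = 0.642, and -0.66 ± 0.40 for transient TNF cells, edgeR adjusted p = 0.632). Summed Klf4 in TNF against blank cells went opposite ways, with 14.2 against 12.1 CPM and 20.9 against 39.7 CPM (log2 fold change -0.32 ± 0.34, edgeR adjusted p = 0.756). By the mean over cells Klf4 was lower in TNF cells of both experiments, with 14.7 against 16.2 CPM and 20.02 against 36.7 CPM. Medians went opposite ways, with 1.65 against 0 CPM and 1.43 against 7.04 CPM.

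Runx1 (ENSMUSG00000022952), known for its part in the origin of blood stem cells and in later lineages, varied more between the experiments than between the classes tested. All cells had a read, with 756 and 217 CPM over TNF cells against 959.9 and 281 CPM over blank cells (log2 fold change -0.31 ± 0.14, edgeR adjusted p = 0.365). Transient TNF cells had 709 and 194 CPM against 1061 and 276 CPM in non-responsive blank cells (-0.54 ± 0.16, edgeR adjusted p = 0.244), lower in both experiments. A single non-responsive blank cell of the 1-plate experiment, at 4368 CPM, held 29.5% of the reads of its group. Oscillatory TNF cells had 728 and 254 CPM, with log2 fold changes of 0.28 ± 0.16 over transient TNF cells (edgeR adjusted p = 0.45) and -0.26 ± 0.16 over non-responsive blank cells (edgeR adjusted p = 0.345).

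Several of the genes differed in level between the experiments, which is described without a test. Summed over all listed cells, Runx1 had 808 and 235 CPM, and Zeb2 618 and 397 CPM. Cebpb ran the other way with 32.7 and 96.3 CPM, as did Cebpe with 6.61 and 16.6 CPM and Klf4 with 13.6 and 26.1 CPM. For Spi1, Cebpa, Cebpd and Gfi1 the log2 ratios of the 1-plate over the 2-plate experiment lay between -0.21 and 0.08. The experiments differed in plates and depth (medians of 899085 and 1718074 reads per cell), and the part of either in these levels was not tested.

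The smaller classes, some of them without cells in both experiments, are described without a test. Non-responsive TNF cells of the 2-plate experiment (n = 18) had a median of 279 CPM of Spi1 (7.58 to 958 CPM), against 294 CPM (120 to 726 CPM) in non-responsive blank cells. Their summed Spi1 went the other way, with 408 against 340 CPM. At least 8000 genes were detected in 12 of these 18 TNF cells, against 32 of the 34 non-responsive blank cells. The part of this in the levels was not tested. In the same TNF cells summed Cebpd was 64.1 against 52.9 CPM, Gfi1 25.04 against 39.4 CPM and Zeb2 372 against 464 CPM. The 3 non-responsive TNF cells of the 1-plate experiment had 102, 153 and 446 CPM of Spi1, and 12.6, 78.97 and 168 CPM of Cebpd against a blank median of 8.80 CPM. The 5 oscillatory blank cells had 184.7, 278, 776, 187 and 560.1 CPM of Spi1, spread over most of the range of the other classes. Their Cebpd was 0, 37.5, 0.395, 0 and 41.05 CPM, with 3 of the 5 cells under 1 CPM. The 5 sustained TNF cells had 267, 299.7, 600.3, 324 and 163 CPM of Spi1, with a median of 299.7 CPM near that of non-responsive blank cells. Sustained cells had 21.1 CPM of Cebpd in the median cell (6.50 to 54.8 CPM), and 141 CPM of Cebpb (6.51 to 207 CPM). The 16 unclear TNF cells had 519.8 CPM of Spi1, 87.6 CPM of Cebpd, 31.4 CPM of Gfi1 and 529 CPM of Zeb2 over their summed reads. Of these cells, 11 had at least 8000 detected genes. In the outlier class, Runx1 was at 1380 and 858 CPM over the 3 and 1 TNF cells, against 756 and 217 CPM over all TNF cells, and at 635 and 1289 CPM over the 2 and 1 blank cells.

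By the authors' cell cycle phase, summed Spi1, Cebpd, Klf4 and Zeb2 were lowest in S phase among TNF cells of both experiments. In G1, S and G2M cells given TNF, Spi1 had 389, 281 and 499.5 CPM (9, 12 and 30 cells), and in the other experiment 518, 381 and 505 CPM (41, 23 and 63 cells). Cebpd had 77.4, 51.6 and 79.3 CPM, and 84.9, 37.1 and 81.5 CPM. Among blank cells summed Cebpd was not lowest in S phase, with 9.11 and 76.7 CPM against 3.97 and 31.2 CPM in G1. In TNF cells Klf4 had 4.72, 0.756 and 21.9 CPM, and 21.7, 4.12 and 25.3 CPM. Zeb2 had 859.7, 581 and 602 CPM, and 449, 207 and 392 CPM. For Zeb2 this order rests on the sums: by the mean over cells, S phase TNF cells of the 1-plate experiment had 623 CPM against 604 CPM in G2M. Spi1 was lowest in S phase in the blank cells of both experiments as well, by sums and by means, where S phase held 3 and 5 cells. TNF cells had more Spi1 than blank cells in each phase of both experiments (518 against 311 CPM in G1, 381 against 226 CPM in S and 505 against 381 CPM in G2M of the 2-plate experiment). How the authors called phases is not described in the sources used here, and these values are a description. G2M cells made up 30 of 51 and 63 of 127 TNF cells, against 10 of 16 and 25 of 44 blank cells.

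**Figure D3:**
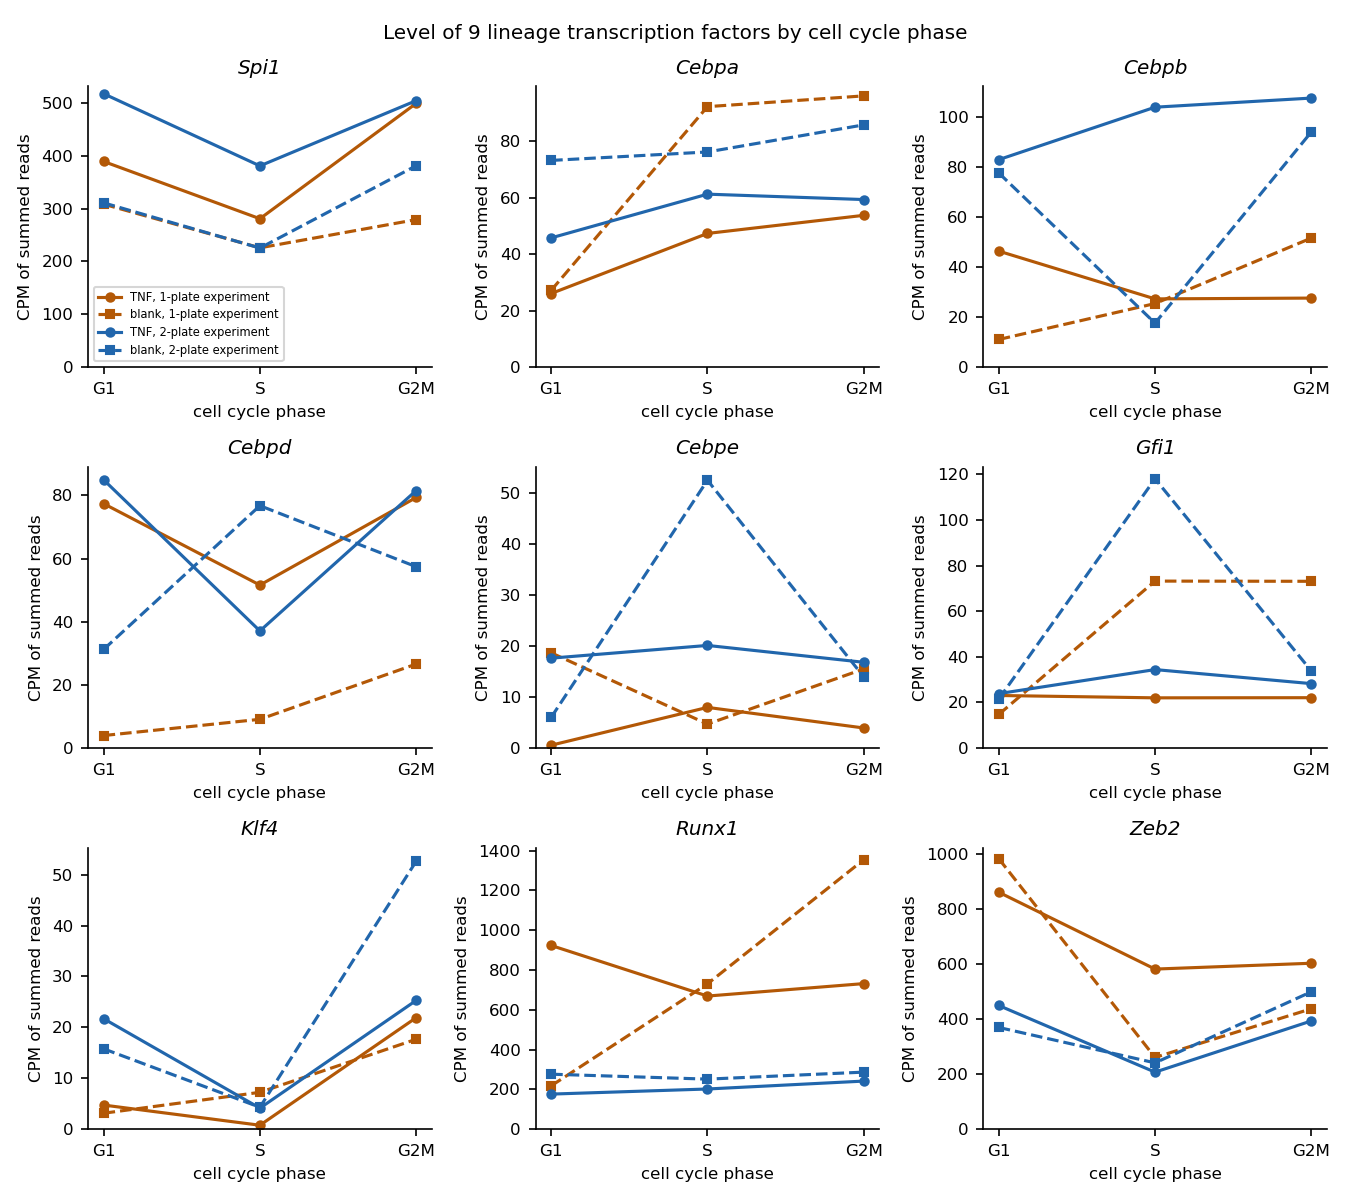
CPM of the summed reads of each gene in G1, S and G2M cells, with TNF cells as solid lines with circles and blank cells as dashed lines with squares, coloured by experiment; each point sums 3 to 63 cells. Spi1 dips in S phase in all 4 lines, and the blank lines rest on 3 and 5 cells in S phase.

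Across single cells some pairs of the factors had positive rank correlations and others negative ones. Spearman rank correlations were taken across cells thinned to equal reads, 61 and 153 in the 2 experiments, and are given without a test. The cells of an experiment share plates and mix stimuli and classes. Of 36 pairs of the 9 genes, 11 were positive and 17 negative in both experiments, 7 reached 0.2 or more and 5 reached -0.2 or less in both. Klf4 and Zeb2, both of the monocyte side, had 0.38 and 0.42, Spi1 and Klf4 0.53 and 0.28, and Spi1 and Cebpd 0.61 and 0.25. On the granulocyte side, Cebpe and Gfi1 had 0.28 and 0.45. Between the sides, negative values were found for Cebpe with Klf4 (-0.38 and -0.39), Cebpe with Zeb2 (-0.38 and -0.34) and Gfi1 with Zeb2 (-0.31 and -0.28). Of cells with a Cebpe read, 4 of 20 and 28 of 78 had a Klf4 read, against 24 of 41 and 49 of 75 cells without one. A Gfi1 read was found in 17 of 20 and 61 of 78 of them, against 29 of 41 and 35 of 75 cells without a Cebpe read. For Gfi1 with Klf4 the shares lay closer than for Cebpe with Klf4. A Klf4 read was found in 43.5% and 43.75% of cells with a Gfi1 read, against 53.3% and 61.4% of cells without one.

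**Figure D4:**
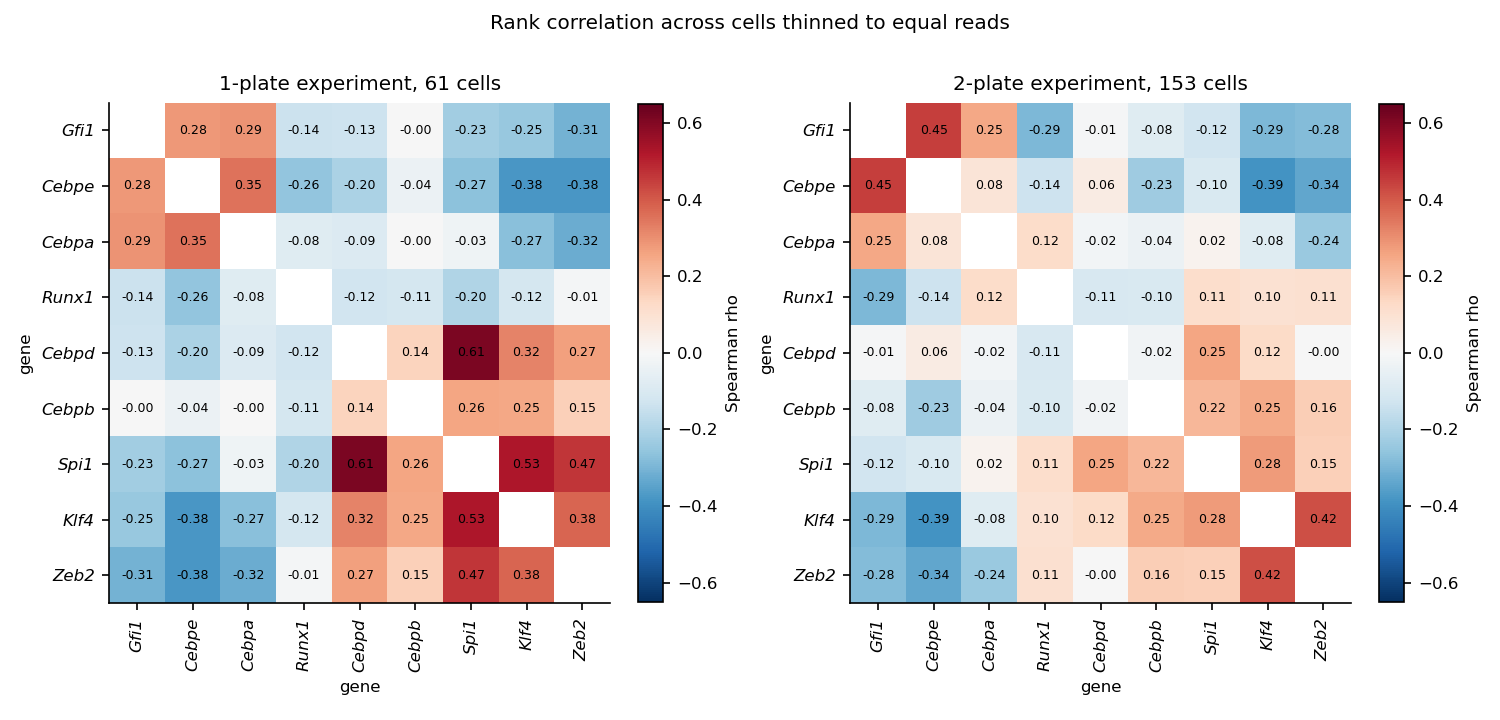
Spearman rank correlation of each pair of the 9 genes across cells thinned to equal reads, in the 1-plate (61 cells) and the 2-plate experiment (153 cells), with red for positive and blue for negative values on a common scale. Gfi1, Cebpe and Cebpa in the upper left are positive with each other, and Cebpe is at -0.38 and -0.39 with Klf4 in the lower left.

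Within single classes these relations kept their sign in part. Cebpe with Klf4 was negative in oscillatory TNF cells (-0.05 and -0.20), transient TNF cells (-0.27 and -0.41) and non-responsive blank cells (-0.64 and -0.34). Cebpe with Gfi1 was positive in the same 3 classes (0.32 and 0.34, 0.15 and 0.29, 0.05 and 0.54). Klf4 with Zeb2 was near 0 in oscillatory cells (-0.02 and 0.04), and 0.24 and 0.41 in transient cells and 0.70 and 0.30 in non-responsive blank cells. These rest on 12 to 46 cells each, and Klf4 and Cebpe have many cells at 0.

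For each of the 9 genes with reads, the 1 gene most like it across cells was sought among 8852 genes with a read in at least 50% of the cells of each experiment, by the mean Spearman correlation of both experiments. Spi1 was most like ENSMUSG00000016256 (0.86 and 0.76), Cebpb most like ENSMUSG00000031662 (0.71 and 0.63), Cebpe most like ENSMUSG00000024681 (0.58 and 0.50) and Gfi1 most like ENSMUSG00000040314 (0.57 and 0.52). The files do not pair these identifiers with names. For Spi1, 720 genes reached 0.3 in both experiments, against 23 for Cebpb, 22 for Cebpd and 10 for Runx1. The top 1% of all genes compared with Spi1 started at 0.66 and 0.57.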

How the data were processed

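Counts were deposited by the authors as whole-read counts per Ensembl gene identifier, made with SAMtools, Subread 1.5.0 and featureCounts, per the submitters' processing notes. Genome build, annotation and strand setting: not given in the sources used here. Reads of overlapping or antisense genes and of near-identical copies can therefore not be told apart. The labels do not say whether the 2 experiments used separate animals, so p-values measure a spread that may be technical. Stimulus, response class and cell cycle phase came from the authors' deposited cell tables, tied to samples by well and plate. The 357 count columns of no sample were not used, nor were the 44 samples outside the cell tables in any comparison. The 92 spike-in features (1.36% of reads) stayed out of library sizes.

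The genes, lists and settings were chosen with earlier results of these data known. Named genes are the 10 factors and, for each, the gene most like it across cells. Gene lists and cell type markers set by symbol were not analysed, since 0 of 55450 identifiers matched the gene table used. Of the GMP markers only Spi1 and Cebpa could be checked.

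Reads were summed per experiment and stimulus (4 sums) or per experiment, stimulus and class with at least 5 cells (10 sums), because cells are not replicates. Genes with at least 10 CPM in 50% or more of the sums were tested with edgeR 4.0.16 in R 4.3.3 (TMM factors, experiment as a term, quasi-likelihood F test, two-sided, adjusted p under 0.05), with 1 and 2 residual degrees of freedom. Irf8 did not pass this filter. Intervals are exact binomial and cover counting error only, since reads carry no molecular identifiers. In 5 draws of simulated counts, the fits found at least 96.8% of 4-fold changes and 57% of 2-fold changes, and 5.99% to 10.2% of calls were false, above the nominal 5%. With edgeR's default low-count filter they found 47% to 55% of 4-fold changes, with 17.8% to 23.05% false calls. The stricter filter was made the main one because earlier simulations of these data had shown such a gap, and Gfi1 and Zeb2 are called with it and not with the default. Alternatives were DESeq2 1.42.0, other factors, other filters, no experiment term, thinned cells, cells with at least 8000 genes and each plate of the 2-plate experiment left out.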

Additional observations from a re-analysis of the deposited data

Results flagged for a closer look

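The levels of 9 genes were looked at in the 5 sustained TNF cells and the 5 oscillatory blank cells, and in 4 of these 18 sets of values 1 cell stood far from the others, each time among the sustained cells. For normally distributed values chance flags about 1 such set in 20, a rate that was not measured here and cannot be assumed for the 3 sets with a median of 0. One sustained cell had 234 CPM of Cebpa against a group median of 38.97 CPM. Another had 62.9 CPM of Cebpe and 66.03 CPM of Gfi1, both with a group median of 0, so these 2 granulocyte factors stood apart in the same cell. Another sustained cell had 107 CPM of Klf4, also with a group median of 0. These 5 cells are among the TNF cells of the 2-plate experiment in TNF against blank, and their sum is 1 of the 10 in the class fits, but they are in none of the class groups compared.

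The 44 samples outside the authors' cell tables, whose stimulus and class are unknown, also held reads of 9 of the 10 genes. Their summed reads gave 323 CPM of Spi1, 88.9 CPM of Cebpa, 64.4 CPM of Cebpb, 45.004 CPM of Cebpd and 29.1 CPM of Cebpe. The sums were 67.6 CPM for Gfi1, 6.76 CPM for Klf4, 532 CPM for Runx1 and 492 CPM for Zeb2. Their median sample was at 0 for Cebpa, Cebpe, Gfi1 and Klf4. Only 32 of the 44 had a read of Spi1, and 3 had a read of Klf4. These 44 samples were shallower, with 14043108 reads assigned to genes in all, against 337847434 over the 238 listed cells. The part of depth in these values was not tested.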

How the results depend on the processing

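The main counts of genes called were 298 for TNF against blank, 732 for oscillatory TNF against non-responsive blank, 104 for transient TNF against non-responsive blank and 259 for oscillatory against transient TNF cells. In the same order, DESeq2 called 530, 1171, 277 and 584, the default low-count filter 69, 390, 22 and 33, and no experiment term 0, 31, 1 and 0, with 457 and 533 at an unadjusted edgeR p under 0.05 for the comparisons with 0. Without Plate1 of the 2-plate experiment, oscillatory against blank gave 245 genes, transient against blank 7 and oscillatory against transient 49. Without Plate2, TNF against blank gave 552 and oscillatory against transient 33. Thinned cells gave 669 for TNF against blank, and no filter gave 156 for oscillatory against transient. The other 17 counts stayed within 1.5-fold. Of the factors, Spi1 in oscillatory TNF against blank cells lost its call in 2 of 9 alternatives and Gfi1 and Zeb2 in 5 each, as given beside them, always with the direction kept. These values turned sign, none of them called: Cebpb in TNF against blank cells at -0.051 with thinned cells and -0.069 without Plate1, and Cebpe in transient TNF against blank cells at 0.082 without an experiment term and 0.20 in cells with at least 8000 genes. Without a filter, the median log2 fold change of all genes in TNF against blank cells was 0.22. Leaving out an experiment leaves no residual degrees of freedom, so its values stand without a test in the plot of fold changes. The cause of these shifts was not tested. At a threshold of 5 reads in place of 1, 56.7% of cells counted for Gfi1, 44.96% for Klf4 and 38.7% for Cebpe. Cells of both stimuli share an experiment, and the experiment is the block in every fit except the one without that term. By replicate number, no paired analysis was possible because these numbers only name wells in accession order. A block by plate was not fitted.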
